A study of Mus musculus with 7 samples.

Results

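The genes described here encode the B cell antigen receptor complex, its coreceptors, the signalling proteins behind it and the transcription factors of the B lineage, without the immunoglobulin genes themselves. They were chosen by name. The list holds 33 names, of which Faim3 is an older name of Fcmr, so that 32 genes were found among the 28828 entries of the count table. All 32 passed the filter on low counts, which kept 19832 genes. RNA of whole lung was sequenced from C57BL/6 mice, with 4 wild type libraries (WT2, WT3, WT4 and WT6) and 3 libraries of mice with a knockout of Scgb3a2 (KO3, KO4 and KO5), a gene for a small secreted protein of airway cells. The labels give neither treatment, age nor sex, do not say which part of the gene is removed or whether each library is its own mouse, and name no other allele. P-values therefore measure the spread between these libraries.

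B cells recognise antigen through membrane immunoglobulin, which signals through the CD79A and CD79B chains that travel with it. Their cytoplasmic tails are phosphorylated by kinases such as BLK, and the adaptor BLNK and the kinase BTK pass the signal on. CD22, CD72 and SIGLECG restrain this signal, whereas the complement receptor CR2 lowers the threshold for it. Healthy mouse lung holds few B cells, and organised lymphoid tissue with B cell follicles can form around airways after inflammation or infection.

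Levels are given as CPM, the count scaled to a common library size after TMM (edgeR's correction for differences in library make-up). Totals ranged from 13071262 to 16480006 counts per library, so that an undetected gene could still have up to 3 counts, or 0.181 to 0.222 CPM. Such limits cover counting error only. Scgb3a2 had 195 to 293 CPM in wild type and 1.21 to 2.68 CPM in knockout libraries, which separates the genotypes as labelled. The lung epithelial genes Sftpc (5897 to 8771 CPM) and Scgb1a1 (6768 to 14581 CPM) were abundant in all 7 libraries. WT6 and KO5 stood apart from the other 5 on the leading principal component (37.5% of the variance). Many fold changes of members and many list medians are therefore also given without KO5. Single genes outside the member list have fold changes with all libraries only.

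Across the whole list, B cell transcripts lay higher in knockout lung on average, but unevenly between libraries. None of the 32 genes passed the test: each had an adjusted p of 0.9998 by the quasi-likelihood test of edgeR, which called 0.0353% of all tested genes (0.0252% as higher). DESeq2 called none either (0.277% of its genes were called). At an unadjusted p under 0.05, edgeR had 15 of the 32 genes on the higher side and none on the lower. Of all genes tested in edgeR, 1.82% were on the higher side at that level and 2.87% on either side. DESeq2 had 19 of the 32 genes at that level, counted on either side. Its share over all genes at that level was not taken, so these 19 have no background to be set against. The median log2 fold change was 1.03, set against -0.007 over all genes tested, and 29 of the 32 values were positive (48% over all genes). A log2 fold change of at least 1 was found for 16 of them, and for 0.918% of all tested genes.

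The knockout libraries differed widely among themselves. KO5 lay above every wild type library for 28 of the 32 genes (21.6% of all tested genes), KO4 for 24 (15.9%) and KO3 for 2 (12.9%), namely Cd22 and Cd72. KO4 and KO5 were both above for 24 genes (5.7%). The 3 knockout libraries had the order KO3, KO4, KO5 from low to high for 27 genes (21.7% of all tested genes). KO3 lay within the wild type range for 25 genes and below it for 5. KO5 was the highest of the 7 libraries for 28 genes (18.6% of all genes), and WT4 was the lowest for 24 (15.9%). The median ratio to the wild type mean was 0.932 in KO3, 1.74 in KO4 and 3.33 in KO5. Only for Cd22 and Cd72 were the genotypes fully separated, which is 2 of 32 genes, and 2.11% of all tested genes were separated in that direction. The gap was narrow in both, with KO3 and WT2 at 10.6 and 10.2 CPM for Cd22 and 3.78 and 3.49 CPM for Cd72. Before scaling, KO3 had fewer counts than WT2 (157 and 170 for Cd22, 56 and 58 for Cd72). Without KO5 the median log2 fold change of the list was 0.40, and with both WT6 and KO5 left out it was 0.60. With the replicate number as a block in 4 libraries no member was called either (0.381% of genes were). In bulk tissue, more B cells and more RNA per B cell cannot be told apart.

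**Figure D1:**
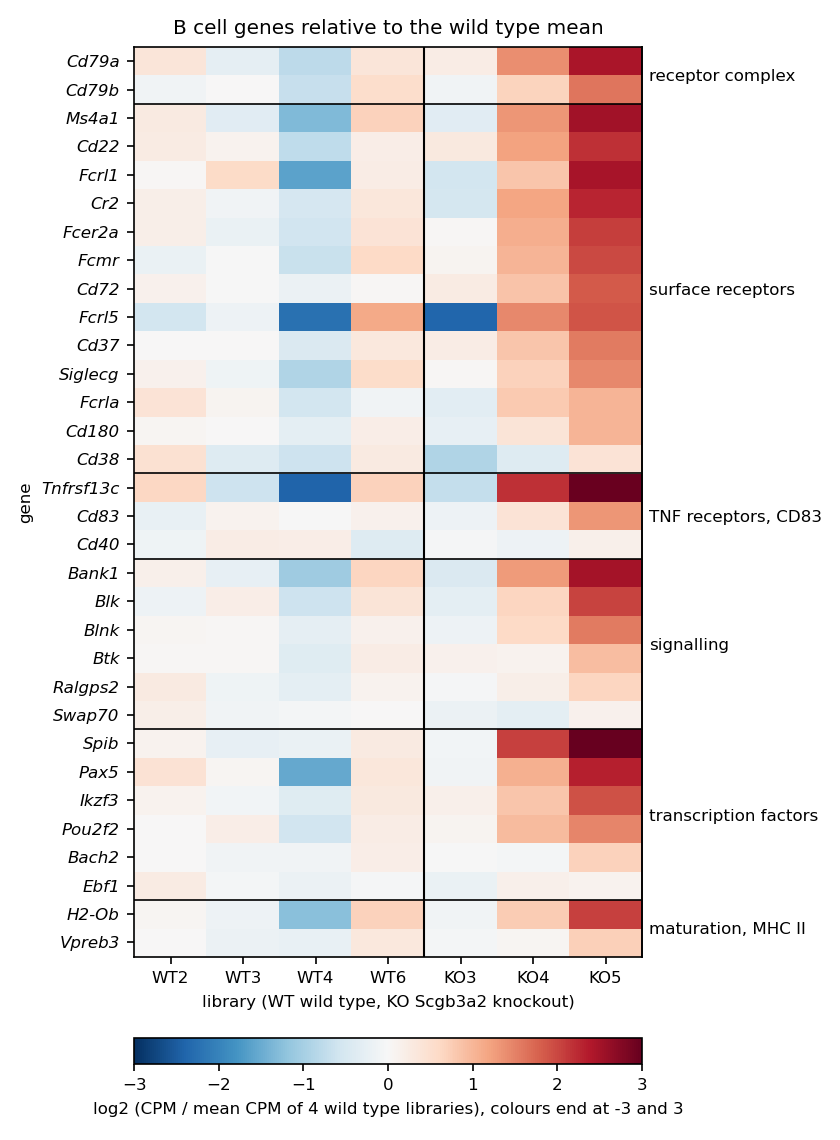
Level of each of 32 B cell genes (rows, grouped by role) in each of 7 libraries (columns), as log2 of its CPM over the mean CPM of the 4 wild type libraries. KO5 is above every wild type library for 28 genes and KO4 for 24, while KO3 resembles the wild type libraries and WT4 is the lowest wild type library for 28 genes.

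Promoter windows are shown for the members because 27 of 32 transcripts had the same order of knockout libraries. RefSeq (build GRCm38.p6) gave the 250 bases before a transcription start for 26 of the 32 genes, without Cd79b, Ms4a1, Blk, Cd40, Cd83 and Ikzf3. On both strands, 3 motifs were searched. They were AGGAAGT, a form of the ETS site that PU.1 and SPIB bind, the octamer ATGCAAAT bound by OCT factors such as POU2F2, and TCCC and GGGA parted by any 2 bases, a form of the site of EBF1. The ETS letters were in the window of 7 of the 26 genes (8.8% of all 27025 genes with a window), the octamer in 2 (1.81%) and the EBF1 letters in 1 (0.91%). No 2 of these matches overlapped. The matches describe letters only, and occupancy was not measured. The ETS matches are printed with their flanks, 5′ to 3′ along each gene, with the motif in capitals; where it reads ACTTCCT it lies on the opposite strand.

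Cd79a, chr7:24897432-24897458, plus strand: acggctgaacAGGAAGTgaggcggagt
Cd72, chr4:43454659-43454685, minus strand: ccaaagacctACTTCCTcttttatgac
Cd37, chr7:45238848-45238874, minus strand: cccccccggaACTTCCTctttctctgc
Fcrl1, chr3:87376362-87376386, plus strand: tccgaccacgACTTCCTcaaacctc
Fcrl5, chr3:87435749-87435775, plus strand: ggctacttctACTTCCTttttctgatt
Blnk, chr19:40994407-40994433, minus strand: tgggacaaacAGGAAGTagtgctcagt
Vpreb3, chr10:75948125-75948151, plus strand: gggaatgccaACTTCCTgcaaatggat

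These positions are relative to the RefSeq start, and GENCODE M21 begins some of these genes further upstream. Of the 7 ETS matches, 4 (Cd79a, Cd37, Blnk and Vpreb3) lie inside the GENCODE gene, and those of Cd79a, Cd37 and Blnk overlap an exon of it. In 5 of these windows the match began 15 to 55 bases before the RefSeq start (Fcrl1 15, Fcrl5 23, Cd37 25, Cd72 49, Cd79a 55), and in Vpreb3 and Blnk it began 165 and 202 bases before it. Blnk and Vpreb3 also held the octamer, and Cd22 the EBF1 letters, again in capitals. All 3 lie inside the GENCODE gene, and that of Blnk overlaps an exon.

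Blnk, chr19:40994334-40994361, minus strand: actggaagggATTTGCATgcccaataag
Vpreb3, chr10:75948245-75948272, plus strand: cagtgggctgATTTGCATgctctattgt
Cd22, chr7:30879058-30879087, minus strand: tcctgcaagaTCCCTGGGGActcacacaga

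Longer windows are given for Cd72, the member with the smallest p, and Spib, the member with the largest fold change. Both lie clear of exons in GENCODE M21. The Cd72 window covers 248 bases with its ETS letters in capitals, and the 250 bases before Spib held none of the 3 motifs.

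Cd72, chr4:43454629-43454876, minus strand: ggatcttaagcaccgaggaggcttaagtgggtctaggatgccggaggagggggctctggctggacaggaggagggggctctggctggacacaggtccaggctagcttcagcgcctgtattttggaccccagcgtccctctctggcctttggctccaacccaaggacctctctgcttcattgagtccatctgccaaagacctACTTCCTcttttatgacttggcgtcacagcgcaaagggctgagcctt
Spib, chr7:44532072-44532321, minus strand: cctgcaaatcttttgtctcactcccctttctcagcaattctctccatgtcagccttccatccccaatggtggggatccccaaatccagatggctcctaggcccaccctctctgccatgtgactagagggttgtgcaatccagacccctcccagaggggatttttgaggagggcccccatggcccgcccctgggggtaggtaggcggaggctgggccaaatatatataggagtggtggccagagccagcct

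The receptor chains came first in the comparison. Cd79a (chromosome 7, 24897381 to 24902197, plus strand, GRCm38) had 4.64, 3.0, 2.07 and 4.64 CPM in WT2, WT3, WT4 and WT6, and 4.19 CPM in KO3, 9.42 CPM in KO4 and 19.6 CPM in KO5. KO4 and KO5 were above every wild type library, and KO3 was inside their range. The means were 3.59 ± 1.27 CPM (SD, n = 4) and 11.1 ± 7.85 CPM (SD, n = 3), a log2 fold change of 1.61 ± 0.49 (SE), and the exact permutation p (two-sided, on log2 of CPM plus 0.5) was 0.171. Its partner Cd79b (chromosome 11, 106311341 to 106314762, minus strand) had 7.89, 8.49, 5.25 and 12.1 CPM in the wild type and 7.84, 13.5 and 25.8 CPM in the knockout libraries. The groups again overlapped through KO3, with a log2 fold change of 0.89 ± 0.40 and an exact permutation p of 0.229. A single split of the 35 has a share of 0.0286, and this test of both directions cannot give so small a p. Without KO5 the log2 fold changes were 0.92 for Cd79a and 0.34 for Cd79b. Per kilobase of exon, the wild type level of Cd79b (5.89 CPM per kb) was above that of Cd79a (2.46 CPM per kb).

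**Figure D2:**
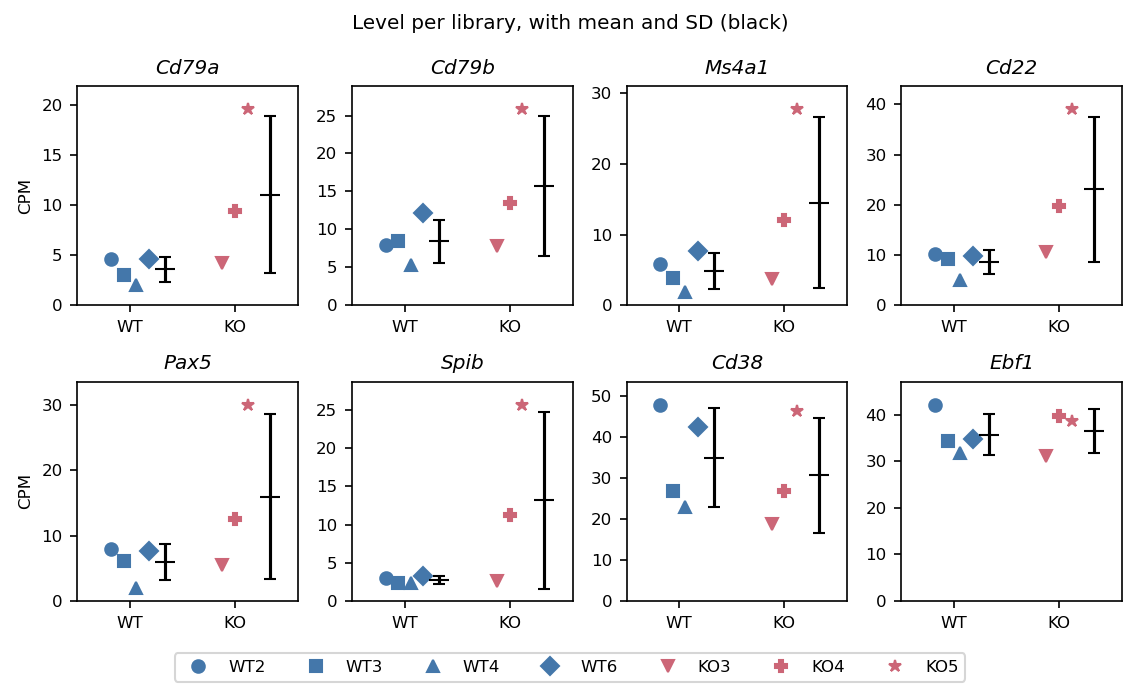
Level in CPM (y axis, from 0) of 8 B cell genes in each wild type (blue, n = 4) and knockout (red, n = 3) library, with the group mean and SD in black. The points of KO5 are highest for Cd79a, Cd79b, Ms4a1, Cd22, Pax5 and Spib, whereas Cd38 and Ebf1 have their highest points in WT2.

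Among the surface receptors, 12 of 13 genes had a positive value, with a median log2 fold change of 1.13, or 0.56 without KO5. Cd22, an inhibitory lectin that dampens receptor signalling, had 10.2, 9.19, 5.11 and 9.85 CPM in wild type and 10.6, 19.7 and 39.0 CPM in knockout libraries. KO3 lay just above WT2, so the groups did not overlap, and the log2 fold change was 1.42 ± 0.42, or 0.82 without KO5. Cd72, an inhibitory receptor also made by some macrophages, had 3.49, 3.13, 2.81 and 3.24 CPM in wild type and 3.78, 5.73 and 11.4 CPM in knockout libraries. Its wild type values were the closest together of these receptors, and it had the smallest p of the list, with a log2 fold change of 1.13 ± 0.32, or 0.59 without KO5. Cd72 shares 41.6% of its exon bases with Tesk1 on the opposite strand, and how the counting treated strand was not given in the sources used here. Tesk1 itself had 16 ± 1.21 CPM in wild type (SD, n = 4) and 16.5 ± 0.592 CPM in knockout libraries (SD, n = 3).

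Ms4a1, the CD20 antigen of mature B cells, had 5.78, 3.83, 1.92 and 7.74 CPM in wild type and 3.78, 12.1 and 27.7 CPM in knockout libraries. KO3 was below WT2, WT3 and WT6, and KO5 was above all others. The log2 fold change of 1.58 ± 0.69 was 0.72 without KO5. Cr2, which binds complement-coated antigen on B cells and follicular dendritic cells, had 7.59, 6.26, 4.74 and 8.51 CPM in wild type and 4.66, 15.5 and 32.9 CPM in knockout libraries. Here KO3 was the lowest of all 7 libraries, close to WT4, while KO4 and KO5 were above every wild type library, and the log2 fold change of 1.38 ± 0.58 was 0.58 without KO5. Fcer2a, the low-affinity IgE receptor CD23 of follicular B cells, had 4.10, 3.13, 2.44 and 4.78 CPM in wild type and 3.72, 7.64 and 15.1 CPM in knockout libraries. Fcmr, the IgM receptor, had 2.35, 2.68, 1.70 and 4.08 CPM in wild type and 2.84, 5.47 and 10.7 CPM in knockout libraries. Both had the same order of knockout libraries, KO3 lowest and KO5 highest, as all 13 surface receptors did.

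Of the Fc receptor-like genes, Fcrl1 and Fcrl5 were at low levels. Fcrl1, an activating coreceptor, had 1.63, 2.36, 0.518 and 1.83 CPM in wild type and 1.08, 2.80 and 8.83 CPM in knockout libraries. Fcrla, an intracellular family member, had 4.46, 3.51, 2.29 and 3.09 CPM in wild type and 2.70, 5.73 and 6.73 CPM in knockout libraries. Fcrl5, found on innate-like and memory B cells, had 4, 5, 1 and 11 counts in wild type and 1, 15 and 18 counts in knockout libraries. At such counts WT4 and KO3 were under the limit of 3 counts, and Fcrl5 was the 1 member with a mean under 1 CPM over the 7 libraries.

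Smaller differences were found for other surface receptors. Cd37, a tetraspanin of mature B cells and other leukocytes, had 8.20, 8.11, 5.99 and 10.1 CPM in wild type and 9.39, 14.3 and 24.0 CPM in knockout libraries. Siglecg, an inhibitory lectin prominent on B-1 cells, had 4.70, 3.96, 2.29 and 6.26 CPM in wild type and 4.39, 7.0 and 11.7 CPM in knockout libraries. Cd180, a receptor related to Toll-like receptors, had 4.16, 4.02, 3.26 and 4.57 CPM in wild type and 3.38, 5.22 and 8.11 CPM in knockout libraries. Their log2 fold changes were 0.97 ± 0.29, 0.83 ± 0.36 and 0.47 ± 0.27, or 0.55, 0.41 and 0.11 without KO5. Cd38, an ectoenzyme that smooth muscle and myeloid cells also make, was the exception with 47.8, 26.9, 22.9 and 42.5 CPM in wild type and 18.9, 26.9 and 46.3 CPM in knockout libraries. It was highest in WT2 and lowest in KO3, with a log2 fold change of -0.20 ± 0.36, or -0.61 without KO5.

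The receptors of the TNF family had unlike values. Tnfrsf13c, the receptor for the survival factor BAFF, had 20, 8, 2 and 18 counts in wild type and 7, 56 and 85 counts in knockout libraries. Its log2 fold change was 2.08 ± 0.79 (0.782 ± 0.544 and 3.40 ± 2.84 CPM, SD, n = 4 and 3), although KO3 was below WT2, WT3 and WT6. It was 1.36 without KO5. Cd40, which receives help from T cells and is also made by dendritic and endothelial cells, had 11.9, 15.3, 15.1 and 10.1 CPM in wild type and 12.7, 11.8 and 14.5 CPM in knockout libraries. These 7 values overlapped fully, with a log2 fold change of -0.01 ± 0.17, 0.02 when scaled by library totals alone. Cd83, an activation marker of B cells and dendritic cells, had 7.29, 9.13, 8.44 and 9.28 CPM in wild type and 7.71, 11.4 and 21.4 CPM in knockout libraries.

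The 6 signalling genes had a median log2 fold change of 0.63, or 0.19 without KO5. Bank1, a B cell scaffold protein, had 7.77, 5.87, 3.33 and 10.8 CPM in wild type and 5.14, 16.9 and 39.2 CPM in knockout libraries. Blk, the B cell kinase of the Src family, had 2.65, 3.38, 1.92 and 3.87 CPM in wild type and 2.43, 4.65 and 12.1 CPM in knockout libraries. In both, KO3 lay within the wild type values and KO5 was far above them, with log2 fold changes of 1.55 ± 0.69 and 1.10 ± 0.48, or 0.67 and 0.27 without KO5. Blnk, the adaptor that links the receptor to BTK, had 6.21, 6.07, 4.96 and 6.54 CPM in wild type and 5.34, 9.04 and 17.4 CPM in knockout libraries. Btk, which myeloid cells share, had 8.20, 8.17, 6.22 and 9.21 CPM in wild type and 8.65, 8.53 and 15.0 CPM in knockout libraries. KO5 alone was above the wild type range for Btk, and its log2 fold change was 0.43 ± 0.22, or 0.11 without KO5. Ralgps2, an exchange factor for Ral, had 34.1, 26.2, 23.3 and 30.6 CPM in wild type and 27.6, 32.3 and 44.9 CPM in knockout libraries. Swap70, a guanine nucleotide exchange factor found in many cells, was the most abundant member with 98.1 to 120 CPM in wild type and 94.2, 86.1 and 116 CPM in knockout libraries. Neither passed the test, with log2 fold changes of 0.29 ± 0.18 and -0.11 ± 0.12, or 0.07 and -0.23 without KO5.

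Of the 6 transcription factors, Spib had the largest fold change of all 32 genes. Spib (chromosome 7, 44525993 to 44532071, minus strand) encodes an ETS factor of B cells, plasmacytoid dendritic cells and the M cells of mucosal epithelium. It had 2.95, 2.30, 2.37 and 3.31 CPM in wild type and 2.57, 11.3 and 25.6 CPM in knockout libraries. KO3 was among the wild type values, while KO4 was 4.15 times and KO5 9.36 times the wild type mean. The log2 fold change was 2.26 ± 0.66. It was 1.35 without KO5, and without KO3 Spib was called by edgeR at 2.75 with an adjusted p of 0.00318 (0.202% of genes were called in that fit), the lowest over all its alternatives, whose highest was 1.0.

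Pax5, which fixes B cell identity, had 8.01, 6.19, 2.07 and 7.6 CPM in wild type and 5.54, 12.5 and 29.98 CPM in knockout libraries. Ikzf3, the factor Aiolos of maturing lymphocytes, had 11.1, 9.77, 8.14 and 12.8 CPM in wild type and 11.6, 18.4 and 38.8 CPM in knockout libraries. Pou2f2, the octamer factor OCT2, had 4.10, 4.66, 2.74 and 4.78 CPM in wild type and 4.33, 7.83 and 11.3 CPM in knockout libraries. All 3 had KO4 and KO5 above the wild type range and KO3 within it, with log2 fold changes of 1.41 ± 0.63, 1.13 ± 0.37 and 0.93 ± 0.30, or 0.59, 0.52 and 0.58 without KO5. Bach2, a repressor of plasma cell differentiation that T cells also make, had 26.3 to 32.4 CPM in wild type and 28.0, 27.2 and 45.9 CPM in knockout libraries. Ebf1, a factor that specifies the B lineage and is also made by stromal and fat cells, had 42.0, 34.3, 31.8 and 34.8 CPM in wild type and 31.1, 39.6 and 38.7 CPM in knockout libraries. Its log2 fold change of 0.03 ± 0.13 had no settled sign (-0.03 without WT6 and KO5).

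The last pair of members serves receptor assembly and antigen presentation. H2-Ob, the chain of H2-O that limits peptide loading on MHC class II in B cells, had 8.80, 7.6, 3.55 and 13.6 CPM in wild type and 7.84, 14.2 and 35 CPM in knockout libraries. Vpreb3, a chaperone of immunoglobulin chains in B cell precursors and mature B cells, had 4.70, 4.09, 4.0 and 5.77 CPM in wild type and 4.46, 4.84 and 7.6 CPM in knockout libraries. Vpreb3 thus varied little for a gene listed as restricted to B cells, with a log2 fold change of 0.28 ± 0.23, or 0.01 without KO5. Per kilobase its wild type level (5.4 CPM per kb) was above that of Cd79a.

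**Figure D3:**
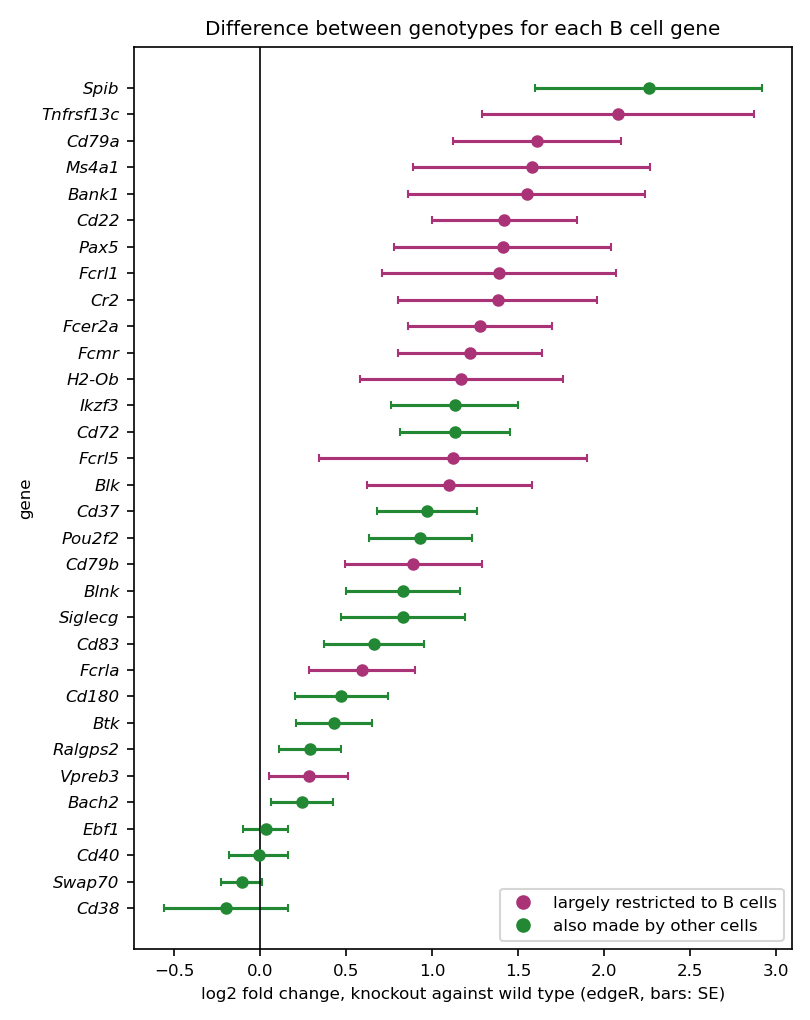
Log2 fold change of knockout against wild type lung (x axis) for each of 32 B cell genes, with edgeR's SE as bars. Genes largely restricted to B cells (purple) have a median of 1.33 and genes also made by other cells (green) a median of 0.56 (0.58 and 0.14 without KO5), and Ebf1, Cd40, Swap70 and Cd38 lie at or near 0.

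The members were also divided by breadth of expression, from general knowledge of these genes. The 16 genes taken as largely restricted to B cells all had positive values, with a median of 1.33 and a range of 0.28 to 2.08. The 16 genes shared with other cells had a median of 0.56 and a range of -0.20 to 2.26. Without KO5 these medians were 0.58 and 0.14, and without WT6 and KO5 they were 0.72 and 0.20. The difference between these groups of genes was not tested. Summed over the 16 restricted genes, the level was 82.1, 70.4, 41.2 and 100.4 CPM in wild type and 67.4, 149 and 318 CPM in knockout libraries. KO3 was thus below WT2, WT3 and WT6. The wild type libraries were themselves uneven, and the highest wild type value was a median of 2.35 times the lowest for restricted genes and 1.45 times for shared ones.

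The proportions of the restricted genes among themselves mostly overlapped between genotypes. Their counts summed to 556 to 1427 in wild type and to 997, 2347 and 4388 in KO3, KO4 and KO5. As a share of that sum, 15 of the 16 genes overlapped between genotypes. The ratio of the mean knockout share to the mean wild type share had a median of 1.001 and ran from 0.605 (Vpreb3) to 1.76 (Tnfrsf13c). Because the shares in a library have a fixed total, these ratios must lie around 1 whatever the genes do. Cd79a was the 1 gene without overlap, at 4.26% to 5.65% of the sum in wild type and 6.18% to 6.31% in knockout libraries. Such shares were not taken for other genes, so 1 gene of 16 has no background to be set against and is not read as a result. Cd79b was at 9.62% to 12.8% and 8.14% to 11.6%. Spib, set against the same sum, ran from 3.26% to 5.76% in wild type, and was 3.81% in KO3, 7.58% in KO4 and 8.04% in KO5.

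**Figure D4:**
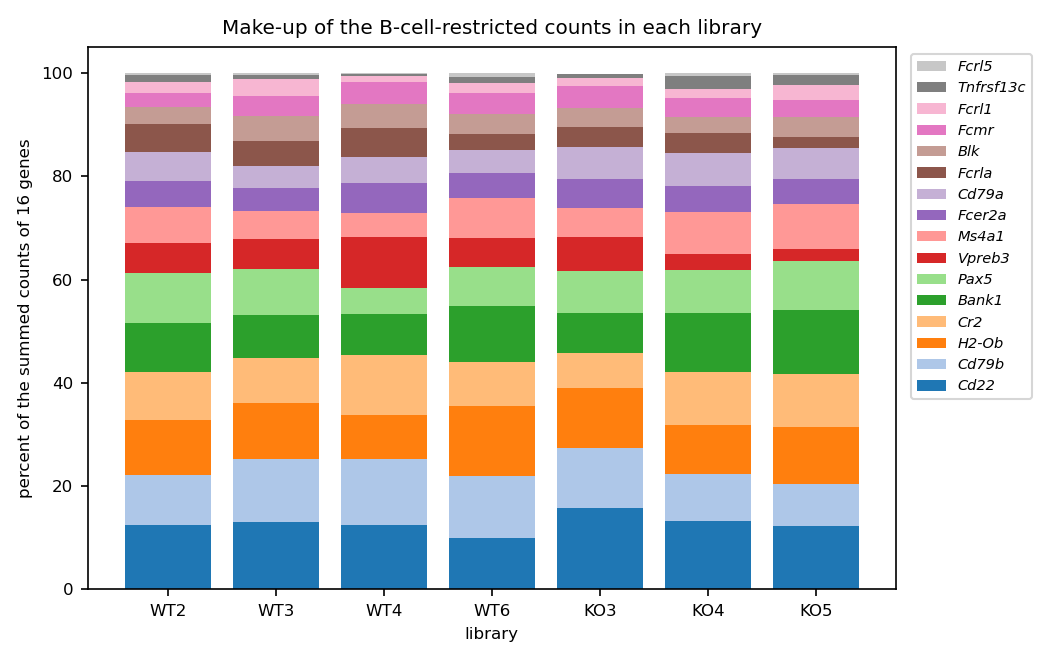
Share of each of 16 B-cell-restricted genes (colours) in their summed counts (y axis, percent) for each library. The shares of 15 genes overlap between genotypes while the sums range from 556 to 4388 counts, and the band of Vpreb3 is thinnest in KO4 and KO5.

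Other genes of receptor signalling, listed apart from the members, showed smaller differences. Of 24 genes, none passed edgeR's test in either direction, 3 had an unadjusted p under 0.05 (all higher), DESeq2 called 0, and the median log2 fold change was 0.24, or 0.10 without KO5. Most of these proteins serve many cell types. Vav1, Syk, Ptpn6 and Pik3ap1, an exchange factor, the kinase that binds CD79 tails, a phosphatase and an adaptor for PI3 kinase, had the smallest p, with log2 fold changes of 0.50, 0.35, 0.30 and 0.19.

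Genes that mark what B cells become or where they gather were often low, and several were highest in KO4 and KO5. In the germinal centre list, 3 of 11 genes were too low to be tested, none of the other 8 passed, and the median was 0.56, or 0.17 without KO5. Cxcl13, the chemokine that draws B cells into follicles, had 2.11, 3.0, 1.92 and 3.31 CPM in wild type and 4.46, 14.4 and 18.5 CPM in knockout libraries. All 3 knockout libraries were above the wild type for Cxcl13, with a log2 fold change of 2.26 ± 0.43 (edgeR adjusted p = 0.4552). Of the 8 tested genes of this list, 5 had positive values and 3 negative. Among the positive ones, Il21r had 1.39 ± 0.61, with KO3 below the wild type range, and Mef2b had 0.97 ± 0.42. Bcl6 and S1pr2, which lung cells other than germinal centre B cells also make, had log2 fold changes of -0.01 and -0.21. For S1pr2 every knockout library was below every wild type library (32.4 to 33.2 and 35.9 to 40.1 CPM), as for 1.61% of all tested genes. It was the 1 gene of the 11 separated downward. Upward, 3 of the 11 were separated, set against 2.11% of all tested genes. These were Cxcl13, Mef2b and a gene too low to be tested. Among survival and homing genes, the median was 0.46 over 11 tested genes of 13, or 0.29 without KO5. The BAFF gene Tnfsf13b had -0.05 ± 0.11, the chemokine Ccl20 3.33 ± 0.56, and its receptor Ccr6 2.64 ± 0.82. Ccl20 had 4, 3, 3 and 3 counts in wild type, about the limit of 3, and 12, 29 and 57 in knockout libraries. Ccr6 had 5, 12, 3 and 19 counts in wild type and 10, 52 and 116 in knockout libraries. KO3 lay within the wild type range for Ccr6. In the antibody-secreting list, 11 of 12 genes were tested and the median was 0.90, or 0.37 without KO5. It was led by Jchain (3.97 ± 0.91), while the broadly made Xbp1 had 0.02 ± 0.14. No gene of these 3 lists passed in edgeR, where 2 germinal centre, 5 survival and homing and 7 antibody-secreting genes had an unadjusted p under 0.05, all higher. DESeq2 called Cxcl13, Ccl20 and Jchain as higher and none as lower.

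Markers of other cells also differed between these libraries. The T cell list summed to 24.3 to 34.4 CPM in wild type and to 35.3 CPM in KO3, 48.0 CPM in KO4 and 73.3 CPM in KO5, with 11 of 12 genes positive and a median of 0.85, or 0.49 without KO5. None passed in edgeR (7 at an unadjusted p under 0.05, all higher), and DESeq2 called 1, Cd4, as higher. Its defining genes Cd3e, Cd3d and Cd3g were detected in every library. The vessel and stroma list of lymph nodes summed to 169 to 199.5 CPM in wild type and 186, 216 and 188 CPM in knockout libraries. Clu made up most of these sums, with 133 to 168 CPM in wild type and 153, 169 and 133 CPM in knockout libraries. Within the list, Glycam1, a mucin-like protein of high endothelial venules, had 0, 0, 0 and 2 counts in wild type and 3, 55 and 29 counts in knockout libraries. Madcam1 had 0 counts in wild type and 0, 3 and 8 in knockout libraries. The mesothelium list summed to 139.7 to 317 CPM in wild type, highest in WT6, and to 127, 171 and 302 CPM in knockout libraries. The summed level of the myeloid and dendritic list overlapped (2632 to 3628 CPM in wild type and 3022 to 3121 CPM in knockout libraries, median 0.11). Most of that sum is Lyz2 (2236 to 3247 CPM in wild type). Of its 12 genes, 7 were positive and 5 negative. Only Flt3 had every knockout library above every wild type library (9.29 to 12.5 and 8.16 to 8.5 CPM), as 2.11% of all tested genes did. Of the thymus list, Foxn1 had 0 counts in all 7 libraries. The part of these cells in the B cell values was not tested.

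**Figure D5:**
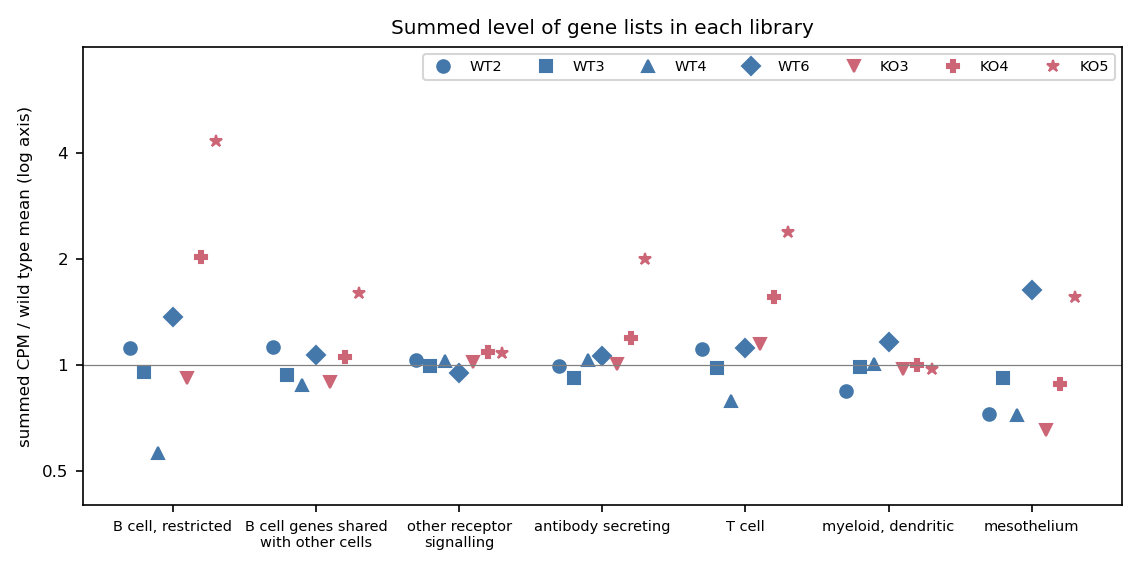
Summed CPM of 7 gene lists in each library, divided by the mean of the 4 wild type libraries (y axis, log scale; blue wild type, red knockout). KO5 and KO4 are highest for the restricted B cell genes (318 and 149 CPM) and the T cell genes (73.3 and 48.0 CPM), and WT6 and KO5 are highest for mesothelium.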

How the data were processed

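The authors deposited raw read counts for each gene in 7 libraries of total lung RNA. Per the submitters' processing notes, STAR, DESeq2 and mm10 were used, without roles. Which program, annotation and strandedness the counting had was not given in the sources used here. Libraries were grouped by the genotype in their titles. The members and lists were chosen with earlier results of these data known. Counts were tested with edgeR 4.0.16 in R 4.3.3 (filter on low counts by genotype, TMM, robust quasi-likelihood test, genotype as the only term), two-sided, with Benjamini-Hochberg adjustment over 19832 genes and 0.05 as the threshold. The SE is the fold change over the root of the F statistic. The procedure was tested on simulated data, in which a changed gene changed equally in all knockout libraries. The simulation does not measure power for genes that vary between knockout libraries as the members did. Every member was accounted for. Of each other list, up to 4 genes with the smallest p and its leading 3 genes could be named. Lyz2 was named as well, for its part in a summed level. DESeq2 1.42.0, other scalings, no filter, leave-one-out fits, the replicate number as a block and fits around WT6 and KO5 were the alternatives. Positions are from GENCODE M21 (GRCm38), and promoter windows from RefSeq (GRCm38.p6). No pair of libraries of a genotype agreed within sampling noise. Values of 2 genes of the other lists are not reported here.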

Additional observations from a re-analysis of the deposited data

Results flagged for a closer look

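No member had a wild type library far from the other 3 by Dixon's criterion (0.829 for 4 values). Of 55 wild type groups examined so (32 genes and 23 list sums), only the adipose list stood out, with 157 CPM in WT6 against 32.1 to 45.7 CPM in WT2, WT3 and WT4 and 27.9 to 56.9 CPM in knockout libraries. Chance flags about 1 in 20 groups. Groups of 3 were not examined.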

How the results depend on the processing

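The number of genes called over all genes, 7 with all libraries, was 13 without robust estimation, 60 with DESeq2, 14 without WT6 and KO5, 29 with a term for that pair, and 3 to 41 with each library left out (3 without WT2, WT3 or WT4, 41 without KO3). No member was called in any of these fits, except Spib without KO3, so that members called ranged from 0 to 1. The members' median log2 fold change, 1.03, ranged from 0.40 (without KO5) to 1.33 (without KO3), and was 0.60 without WT6 and KO5 and 0.84 with the term. The restricted median, 1.33, was 0.72 and the shared median, 0.56, was 0.20 without WT6 and KO5, and the antibody-secreting (0.90) and T cell (0.85) medians were 0.52 and 0.54. Numbers 3 and 4 occur in both genotypes, and the deviations of same-numbered libraries had a correlation of -0.0107 over genes. With 2 libraries per genotype, this value is the same for both numbers by construction. It cannot show whether same-numbered libraries share more than a number. With the replicate block in these 4 libraries, 74 genes and no member of the 30 tested were called, at a members' median of 0.64; the same 4 libraries without the block, a fit added after seeing the data, gave 18 genes and 0.66. The germinal centre median, 0.56, was 1.21 with no filter and 1.22 with DESeq2, which also count its 3 low genes, and 0.17 without KO5 or without WT6 and KO5, and 0.21 with the block. The sign changed for Cd40, Ebf1, Cd38 and Bach2; the cause was not tested. Cd40 had 0.02 with library totals, 0.01 with the term and -0.11 to 0.08 with each library left out. Ebf1 had -0.03 without WT6 and KO5 and -0.04 to 0.13 with each left out, Cd38 -0.61 to 0.06 and Bach2 -0.04 to 0.37. Depth limits Fcrl5 and Tnfrsf13c most, with 1 and 2 counts in WT4.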

Other observations

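Genes of cell division followed the B cell genes in part. All 12 had positive log2 fold changes with a median of 0.53 (0.37 without KO5, with 9 of 12 positive), and none passed edgeR's test, with 7 at an unadjusted p under 0.05. DESeq2 called 1 of them, Mki67, as higher. Mki67, a marker of cycling cells, had 47.0, 43.4, 34.9 and 37.4 CPM in wild type and 51.2 CPM in KO3, 82.5 CPM in KO4 and 82.3 CPM in KO5. Here KO4 and KO5 were alike, unlike in the B cell genes, and KO3 was above all wild type libraries. The summed level of the list was 82.1 to 102 CPM in wild type and 111, 156 and 175 CPM in knockout libraries.

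Of the list of B cell precursors, 2 of the 4 genes in the table were at or near 0. Rag2 had at most 3 counts and Dntt at most 2 in any library. Il7r, which T cells and innate lymphocytes also make, had a log2 fold change of 0.43 ± 0.16, and Bst1, also made by myeloid and stromal cells, had 9.28 to 17.7 CPM over the 7 libraries. Of the plasmacytoid dendritic list, a cell type that makes Spib, 2 of 6 tested genes had positive values, with a median of -0.11. Its marker Siglech had 1.57, 1.6, 1.70 and 1.41 CPM in wild type and 0.406, 1.15 and 2.68 CPM in knockout libraries. The red cell and platelet list, which reflects blood left in the lung, had a median of 0.10, with summed levels of 1494 to 1746 CPM in wild type and 1654 to 1919 CPM in knockout libraries. The adipose list had a median of -1.07 over 5 tested genes, which was 0.10 without WT6, with 3 of 5 values then positive. The mesothelium median was -0.06, but 0.45 without WT6 and -0.60 without KO5. Of the thymus list, 1 of 7 genes was tested, Cd1d1, which many cells make, at -0.11.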
